A study of Arabidopsis thaliana with 12 samples.

Results

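Moderately bright genes whose place among all probes was nearly the same with and without DCMU are described here. They were 53 genes, each with a probe of its own, out of 692 probes with exactly 1 annotated gene and 3439 probes in all. The array signals came from 2 groups of wild-type Arabidopsis thaliana of ecotype C24, which shared the genotype and the light. One group was given light specific for photosystem I (PSI light) together with DCMU, and the other PSI light alone. Each group had 6 samples, and 1 column of relative intensities belonged to each. Within a group, columns 1 and 2, 3 and 4, and 5 and 6 had correlations of ranks of 0.976 to 0.991, against 0.921 to 0.960 for other columns. Each such pair was averaged into a duplicate mean, which leaves 3 per group, although the labels do not state that they are duplicates. The labels give neither the tissue, the age of the plants, the dose nor the length of treatment, and whether samples were grown apart is not stated, so the spread between duplicate means may be technical. In such bulk RNA, fewer cells of a type and less RNA per cell cannot be told apart.

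DCMU binds photosystem II and stops electron transfer to the plastoquinone pool of the thylakoid membrane. PSI light excites photosystem I more than photosystem II and draws electrons out of that pool. The redox state of the pool and of the carriers behind photosystem I is known to act on the expression of plastid and nuclear genes. Products of the genes described here serve organelle gene expression and organelle DNA, amino acid and cofactor synthesis, signalling and the cell nucleus. For many of the genes no role is stated here.

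The genes were chosen by their measured values. All 3439 probes were ranked within each column, so that 0 stands for the dimmest and 1 for the brightest probe. A gene was taken when its median rank over 6 columns lay from 0.40 to below 0.88 in both groups and differed by less than 0.05 between them. Of the 692 single-gene probes, 232 lay in this range and 54 of these met the limit. The NDH subunit gene NdhN was left out by name, at a median rank of 0.471 with DCMU and 0.432 in PSI light. The rank differences and fold changes of these genes are therefore a description. Values from limma's model over all probes are given beside them as measures of spread and as counts beside the background, and support nothing about the genes. Among all probes in the range, named or not, 25.7% met the limit, against 23.3% of the single-gene probes.

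The limits did not fall in gaps of the distribution. Just inside the limit on the difference were AT5G43770, AT4G22370 and AT4G24750, each lower with DCMU by a rank difference (DCMU minus PSI light) of -0.049. The largest positive difference was 0.049, for AT4G29120. Just outside it were AT3G54680 at 0.050, AT2G38550 at -0.052 and AT5G66050 at 0.055. At the lower edge AT1G24310 was taken at 0.401 with DCMU and 0.419 in PSI light, and AT2G17670 was not, at 0.430 with DCMU and 0.393 in PSI light. At the upper edge AT4G21170 was taken at 0.855 with DCMU and 0.877 in PSI light, and AT4G34310 was not, at 0.886 with DCMU and 0.889 in PSI light.

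Levels of the 53 genes covered the whole range, with a thinner middle. Group medians averaged 0.40 to 0.60 for 22 genes, 0.60 to 0.75 for 10 and 0.75 to 0.88 for 21. These were 25.6%, 10.3% and 42.9% of the single-gene probes at such ranks in the range. Part of the pattern follows from the rule, because a gene near an edge that changed left the range. Rank differences were negative for 33 genes and positive for 20, with a median of -0.009. They were under 0.01 in size for 13 genes and over 0.04 for 14. On the scale of quantile-normalised log2 intensity, a rank step of 0.05 was worth 0.17 at the lower edge and 0.33 at the upper edge.

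**Figure D1:**
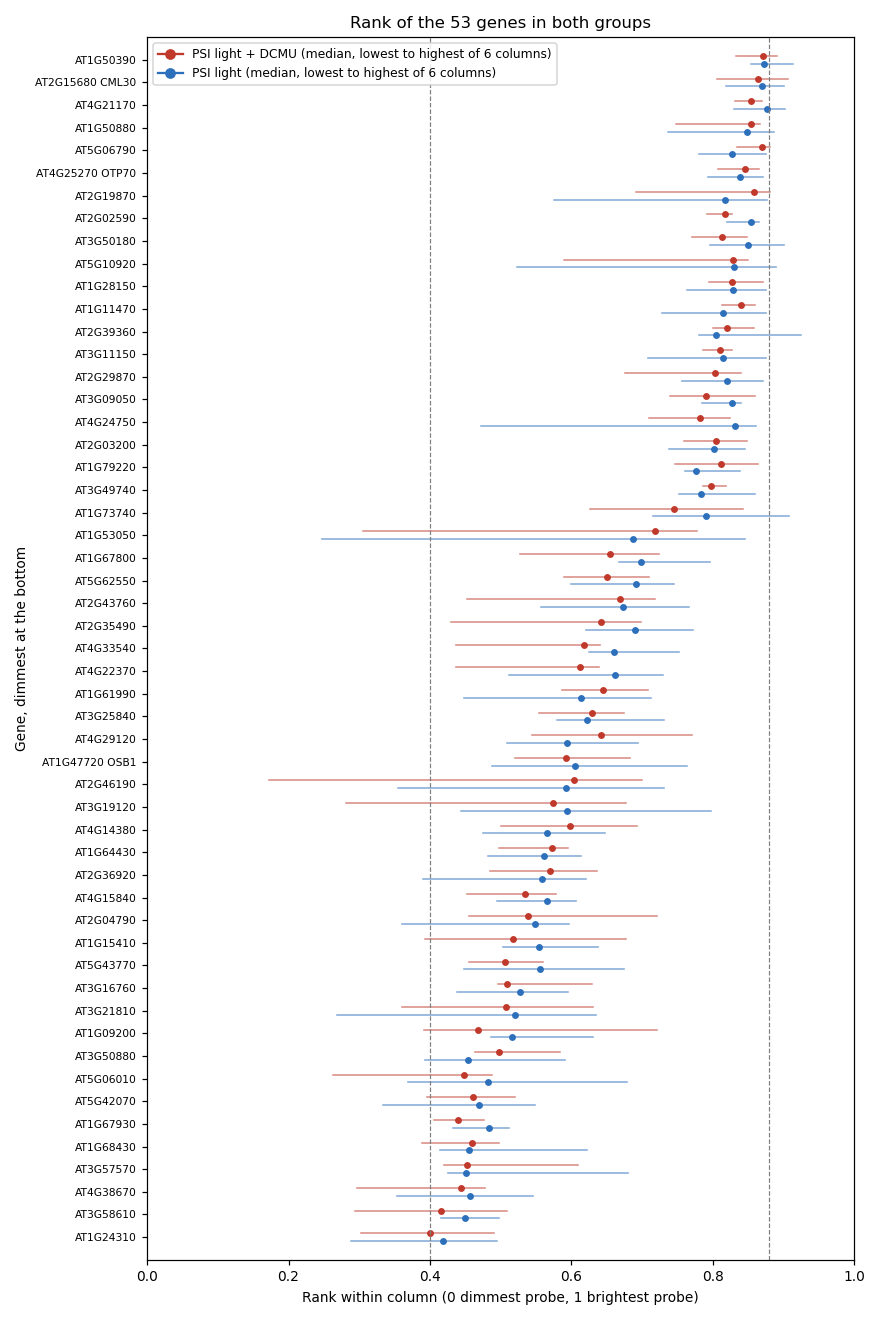
Rank within the column (horizontal axis, 0 dimmest to 1 brightest) of each of the 53 genes, as the median (point) and the lowest to the highest of 6 columns (line) in PSI light + DCMU and in PSI light. Medians of both groups lie within 0.05 of each other between the dashed limits of 0.40 and 0.88, while single columns spread over up to 0.598 for AT1G53050.

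Single columns of these genes spread widely. The rule bounded the difference between group medians and left the spread of columns free, so the spread is given as a description. Over all 12 columns the range of a gene's rank had a median of 0.216 and ran from 0.072 to 0.598. Duplicate means of a group spanned a median of 0.095 with DCMU and 0.119 in PSI light, and for 47 of the 53 genes they spanned over 0.05 in at least 1 group. Even duplicate columns differed by at least 0.05 in 29.6% of 318 comparisons. The other 178 single-gene probes in the range, of which 66 ranked higher and 112 lower with DCMU, were alike in this respect: their duplicate means spanned a median of 0.109 with DCMU and 0.104 in PSI light, and 28.2% of their duplicate columns differed by at least 0.05.

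The steadiest 8 genes, by the range of their rank over 12 columns, were 7 bright ones and the dimmer AT1G67930. A rank step of 0.05 was worth 0.33 in log2 at the upper edge, against 0.17 at the lower. The same log2 spread therefore gives a smaller range of rank to a bright gene, and steadiest here refers to rank only. AT4G21170, for a pentatricopeptide repeat protein, had the smallest range, 0.072. Its log2 levels were 0.40, 0.38 and 0.22 in the 3 duplicate means with DCMU, against 0.70, 0.45 and 0.35 in PSI light. The groups overlapped, and 2 of the 3 values in PSI light were above all of those with DCMU. OTP70 (AT4G25270), for a pentatricopeptide repeat protein that acts in the processing of chloroplast transcripts, stood at 0.23, 0.36 and 0.23 with DCMU, against 0.20, 0.13 and 0.36 in PSI light. Its fold change was 1.03, with a 95% interval of 0.89 to 1.19, and the values of the groups lay among each other.

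AT1G50390, for a sugar kinase of the pfkB type, had log2 levels of 0.60, 0.30 and 0.46 with DCMU, against 0.42, 0.40 and 0.78 in PSI light. CML30 (AT2G15680), for a calmodulin-like protein that belongs to the calcium sensors, stood at 0.79, 0.41 and 0.10 with DCMU, against 0.70, 0.45 and 0.19 in PSI light. In both groups it was highest in columns 1 and 2 and lowest in columns 5 and 6, so that its spread lay between the numbered duplicates and not between the groups. AT3G49740, for another pentatricopeptide repeat protein, stood at 0.03, -0.01 and 0.13 with DCMU, against -0.03, -0.13 and 0.32 in PSI light.

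The remaining 3 of the steadiest genes had duplicate means that did not overlap between the groups. AT2G02590 had log2 levels of 0.09, 0.17 and 0.07 with DCMU, against 0.34, 0.39 and 0.24 in PSI light. AT5G06790 stood at 0.29, 0.54 and 0.45 with DCMU, against 0.22, 0.18 and 0.19 in PSI light. AT1G67930, for a subunit of a Golgi transport complex, stood at -1.12, -1.23 and -1.10 with DCMU, against -1.10, -1.01 and -1.02 in PSI light. Each difference was small on the log2 scale, at -0.21 (SE 0.06), 0.23 (SE 0.07) and -0.11 (SE 0.05). Including AT4G33540, which was lower with DCMU, 4 of the 53 genes did not overlap, 1 higher and 3 lower with DCMU, against 55.3% of all probes (23.5% higher and 31.8% lower). In limma's model of duplicate means 1 of the 53, AT2G02590, passed an adjusted p of 0.05, lower with DCMU, against 43.1% of all probes (18.1% higher and 25.0% lower). Its limma adjusted p was 0.0371, and AT2G02590 passed in 7 of 18 other settings and not in 11, with adjusted p-values of 0.00309 to 0.38. The rule selected on this difference, so nothing is read from either count.

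**Figure D2:**
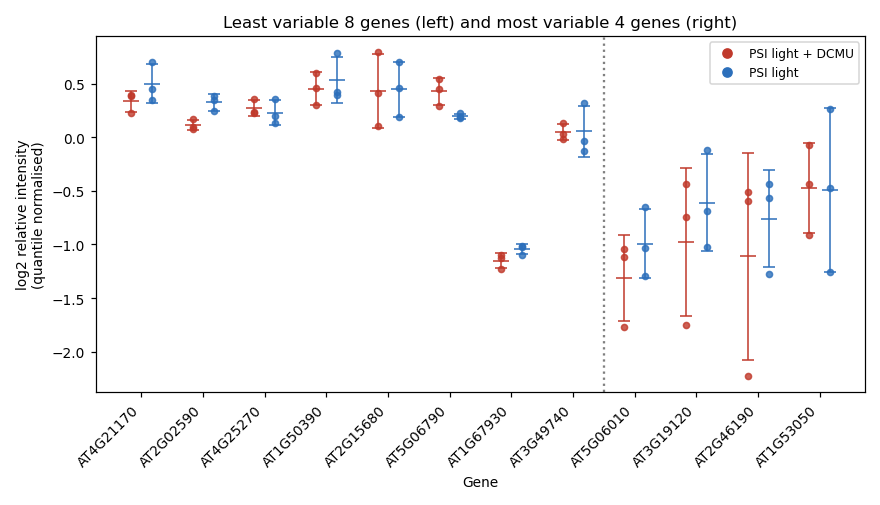
Quantile-normalised log2 relative intensity (vertical axis) of the 8 genes with the smallest and, right of the dotted line, the 4 with the largest range of rank over 12 columns. Points are the 3 duplicate means of a group, bars their mean and SD, with PSI light + DCMU left of PSI light for each gene; the SD of AT2G46190 with DCMU was 0.97, against 0.05 for AT2G02590.

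Part of the genes were given a role from background knowledge and grouped by it with their values in view. These were 24 of the 53, and for most of them the annotation used here gives a locus and no name. The sizes of the groups reflect this choice, and products of the other genes are not all unknown. Genes for organelle gene expression, with OSB1 for organelle DNA placed among them, were 7. Their log2 fold changes were -0.16 to 0.20, with a median of 0.04. Besides OTP70, AT4G21170 and AT3G49740 they held 2 mTERF genes, members of a family that acts on organelle transcription and RNA. AT1G79220 had log2 levels of 0.11, -0.12 and 0.36 with DCMU, against 0.07, -0.12 and 0.11 in PSI light. AT1G61990 stood at -0.69, -0.47 and -0.44 with DCMU, against -1.13, -0.63 and -0.35 in PSI light. In both mTERF genes the values of the groups overlapped.

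OSB1 (AT1G47720), for an organellar protein that binds single-stranded DNA and limits recombination of the mitochondrial genome, stood at -0.54, -0.83 and -0.67 with DCMU, against -0.93, -0.66 and -0.30 in PSI light. AT2G19870, for an RNA methyltransferase of the SpoU type, stood at 0.45, 0.41 and -0.38 with DCMU, against 0.14, -0.69 and 0.45 in PSI light. One duplicate mean was low in each group of AT2G19870, that of columns 5 and 6 with DCMU and that of columns 3 and 4 in PSI light. Its fold change of 1.15 had an interval of 0.56 to 2.34.

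Genes for metabolic and plastid proteins were 8, with log2 fold changes of -0.33 to 0.18 and a median of -0.08. AT3G58610, for ketol-acid reductoisomerase of branched-chain amino acid synthesis in the plastid, had log2 levels of -1.24, -0.97 and -1.59 with DCMU, against -1.15, -1.005 and -1.21 in PSI light. Its groups overlapped, with the lowest value in columns 5 and 6 with DCMU. AT5G10920, for argininosuccinate lyase, the last enzyme of arginine synthesis, stood at 0.26, -0.57 and 0.20 with DCMU, against 0.49, -0.64 and 0.21 in PSI light. It was low in columns 3 and 4 of both groups.

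AT2G35490, for a fibrillin of the plastid lipid droplets, had log2 levels of -0.49, -0.42 and -1.17 with DCMU, against -0.11, -0.39 and -0.60 in PSI light. AT2G43760, for the large subunit of molybdopterin synthase, which makes the molybdenum cofactor, stood at -0.33, -0.46 and -1.10 with DCMU, against -0.11, -0.59 and -0.57 in PSI light. For both genes columns 5 and 6 with DCMU were the lowest. Without them the log2 fold change was -0.09, against -0.33 with them, for AT2G35490 and 0.03, against -0.21 with them, for AT2G43760. AT4G24750, for a rhodanese-domain protein of the type that transfers sulfur, stood at -0.03, -0.32 and 0.14 with DCMU, against 0.25, -0.67 and 0.28 in PSI light, low in columns 3 and 4 of both groups. The remaining metabolic genes were AT1G50390 above, AT4G29120, for a protein of the 6-phosphogluconate dehydrogenase type, at a log2 fold change of 0.18, and AT1G15410, for a protein of the amino acid racemase type, at -0.09.

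Genes for signalling proteins were 5, with log2 fold changes of -0.24 to 0.02. AT3G25840, for a kinase of the PRP4 type that acts on splicing, had log2 levels of -0.67, -0.47 and -0.71 with DCMU, against -0.72, -0.34 and -0.60 in PSI light, and its groups overlapped. AT2G39360, for a receptor-like kinase, stood at 0.32, 0.07 and 0.15 with DCMU, against 0.80, 0.05 and -0.02 in PSI light, where columns 1 and 2 were high. AT1G67800, for a ubiquitin ligase of the RING type, stood at -0.28, -0.50 and -0.86 with DCMU, against -0.32, -0.39 and -0.22 in PSI light. The protein kinase gene AT1G53050 is described with the most variable genes, and CML30 with the steadiest.

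The 4 genes for nuclear and trafficking proteins were all in the lower part of the range, at group medians of 0.401 to 0.517. Since the groups were made with the values in view, nothing is read from this shared level. AT3G25840, whose product acts on splicing, was placed with signalling, at 0.629 with DCMU and 0.622 in PSI light. AT1G24310, for a nucleoporin, stood at log2 levels of -1.15, -1.25 and -1.58 with DCMU, against -1.06, -1.67 and -1.23 in PSI light. AT1G09200, for a histone of the replication-dependent type, stood at -1.31, -1.07 and -0.39 with DCMU, against -0.97, -0.97 and -0.63 in PSI light. It was highest in columns 5 and 6 of both groups. Its value is uncertain, since near-identical histone copies can share a probe. AT3G50880, for a DNA glycosylase of base excision repair, stood at -0.91, -1.07 and -0.88 with DCMU, against -1.31, -0.75 and -1.12 in PSI light. AT1G67930 was among the steadiest.

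The other 29 genes, for which no role is stated here beyond their locus, had median ranks of 0.444 to 0.870 and log2 fold changes of -0.37 to 0.24, with a median of -0.08. Among them were AT3G57570 and AT4G38670, which belong to the 4 dimmest of the 53, and AT1G50880, which belongs to the 4 brightest. AT3G57570 stood at log2 levels of -1.19, -1.15 and -0.79 with DCMU, against -1.15, -0.46 and -1.17 in PSI light. AT4G38670 stood at -1.10, -1.63 and -1.12 with DCMU, against -0.87, -1.35 and -1.10 in PSI light, lowest in columns 3 and 4 of both groups. AT1G50880 stood at 0.36, 0.40 and -0.09 with DCMU, against 0.57, 0.30 and -0.14 in PSI light, lowest in columns 5 and 6 of both groups.

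The 4 most variable genes had median ranks within the limit, while their single columns disagreed. AT1G53050 stood at log2 levels of -0.07, -0.44 and -0.91 with DCMU, against -0.48, 0.27 and -1.26 in PSI light. Its duplicate columns 5 and 6 were themselves apart, at -0.17 and -1.65 with DCMU and at -0.62 and -1.90 in PSI light. AT2G46190 stood at -0.51, -0.60 and -2.23 with DCMU, against -1.28, -0.43 and -0.57 in PSI light. AT3G19120 stood at -0.44, -0.75 and -1.75 with DCMU, against -0.69, -0.12 and -1.02 in PSI light. AT5G06010 stood at -1.12, -1.04 and -1.77 with DCMU, against -1.29, -1.03 and -0.66 in PSI light.

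In AT2G46190, AT3G19120 and AT5G06010 the lowest value came from columns 5 and 6 with DCMU. Without them the log2 fold changes were 0.21, 0.02 and -0.09, against -0.35, -0.37 and -0.32 with them. Across the 53 genes this duplicate mean was the lowest of the 6 for 15 genes. The other 5 were the lowest for 4 to 11 genes each. In the deposited intensities, before any scaling, columns 5 and 6 with DCMU also had the lowest medians over all probes, 0.386 and 0.392. The other DCMU columns had medians of 0.448 to 0.504, and those in PSI light 0.542 to 0.584. The log2 levels above were quantile normalised, which gives every column the same distribution, so this difference in medians is not present in them. Any other link between the dim columns and the low values of these genes was not tested.

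Log2 fold changes of the 53 genes, as DCMU minus PSI light, ran from -0.37 to 0.24 after quantile normalisation, with a median of -0.06, the same as the -0.06 over all 3439 probes. Of the 53, 34 were negative and 19 positive. Their median size was 0.11, against 0.51 over all probes and 0.52 over the other 178 single-gene probes in the range, as the rule requires. Since the genes were picked for small differences in these same values, their intervals describe the spread between duplicate means and set no limit on the true difference. For 45 genes the 95% interval from limma lay within 2-fold in both directions, and for 22 within 0.5 on the log2 scale. The 45 became 29 with no scaling, 36 with equal totals and 51 after the correction for probe position described further on. They became 47 when same-numbered duplicate means of both groups were paired (the replicate block). With this block the fold interval of AT5G10920 narrowed to 0.79 to 1.16, and that of AT2G19870 widened to 0.40 to 3.32. For the other 8 a 2-fold difference lay within the interval: AT1G53050 (fold 0.44 to 2.31), AT2G46190 (0.29 to 2.15), AT3G19120 (0.36 to 1.69), AT5G06010 (0.49 to 1.31), AT3G21810 (0.56 to 2.01), AT1G73740 (0.47 to 1.36), AT5G10920 (0.47 to 1.95) and AT2G19870 (0.56 to 2.34).

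**Figure D3:**
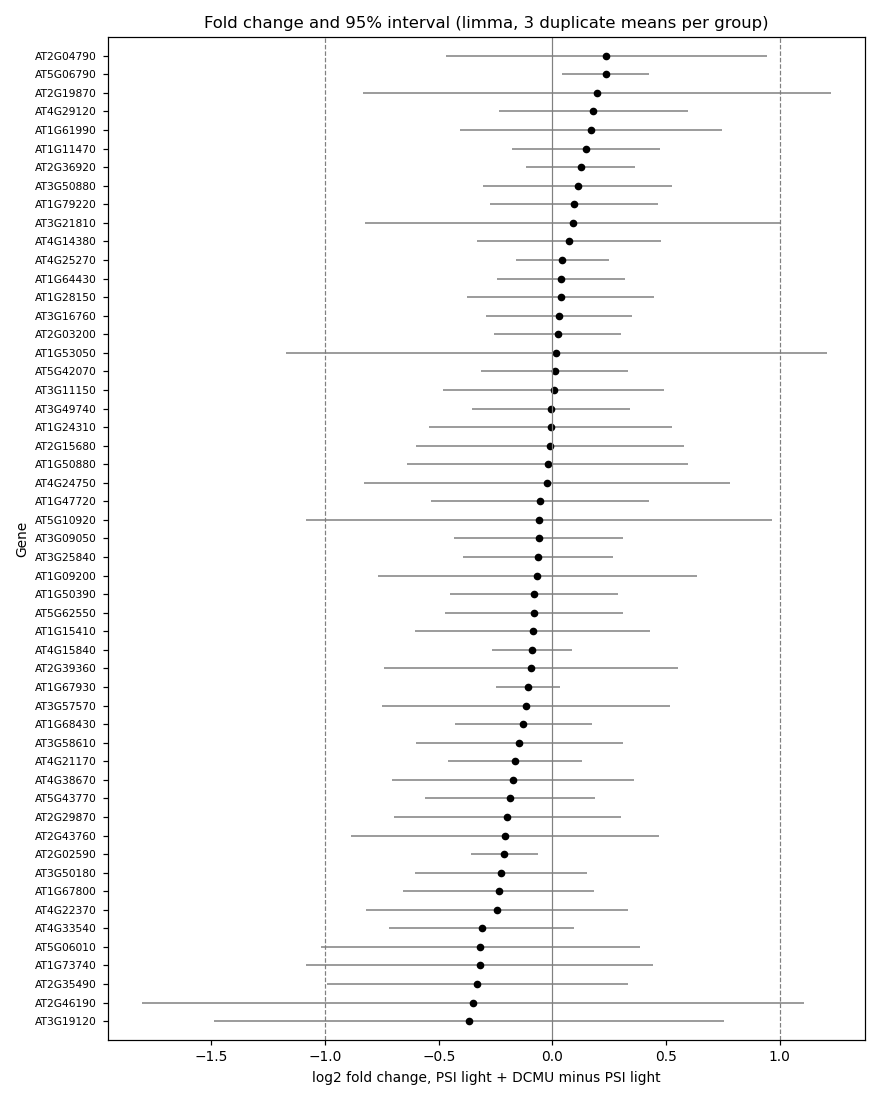
Log2 fold change (points, PSI light + DCMU minus PSI light) and 95% interval (lines) of each of the 53 genes from limma on 3 duplicate means per group, with dashed lines at -1 and 1. All points lie between -0.37 and 0.24, and the intervals of 8 genes cross a dashed line.

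An equal rank was not an equal intensity. As deposited, with no scaling between columns, all 53 genes were lower with DCMU, with log2 fold changes of -0.74 to -0.12 and a median of -0.43, against a median of -0.32 over all probes. With equal column totals all 53 were lower too, from -0.64 to -0.02 with a median of -0.34, against -0.23 over all probes. With equal column medians 34 were negative and 19 positive, as after quantile normalisation. With cyclic loess 20 were negative and 33 positive, and the median was 0.04. The direction of these genes as a group therefore depended on the scaling, which the deposited values do not settle. The scaling also moved the division of all probes that passed in limma, which was 624 higher and 859 lower after quantile normalisation, 425 higher and 1172 lower with none, 474 higher and 1058 lower with equal totals and 836 higher and 769 lower after the position correction.

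**Figure D4:**
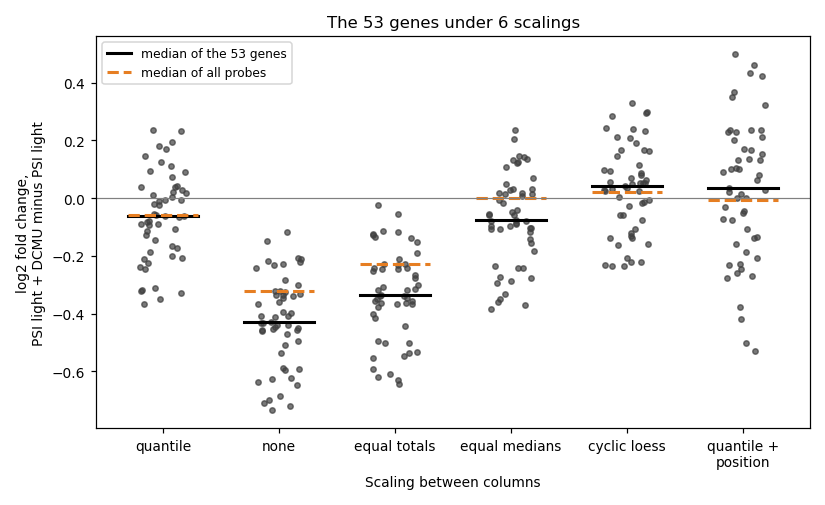
Log2 fold change (vertical axis, PSI light + DCMU minus PSI light) of the 53 genes, 1 point each, under 6 scalings between columns; solid bars are their medians and dashed bars the medians of all 3439 probes. All points lie below 0 with no scaling and with equal totals, and on both sides of 0 with the other scalings.

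Over all probes, the log2 fold changes of neighbours in the probe numbering correlated at r = 0.20 (3438 neighbouring pairs, which share the same columns, given as a description). A running median along the numbering, over 101 probes, was subtracted from each column, after which r was 0.08. After this position correction 30 of the 53 genes still met the rule and 23 did not. These 30 were 50.8% of the 59 single-gene probes that then met it. Rank differences of the 53 widened to -0.194 to 0.113, with 15 genes lower and 6 higher by at least 0.05 with DCMU. AT1G15410 stood at the lowest rank difference, -0.194, and AT4G29120 at the highest, 0.113. The correction moved log2 fold changes by -0.29 to 0.43, so that AT2G02590, at -0.21 before it, stood at 0.13 and AT1G47720, at -0.05 before it, at 0.35. Afterwards 32 genes were positive and 21 negative.

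**Figure D5:**
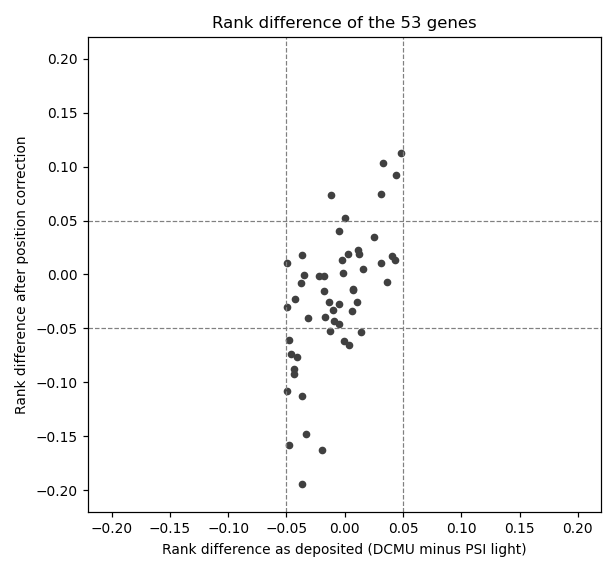
Difference of median rank (PSI light + DCMU minus PSI light) of the 53 genes as deposited (horizontal axis) and after the position correction (vertical axis), with dashed lines at -0.05 and 0.05. Points lie between -0.049 and 0.049 before and between -0.194 and 0.113 after it.

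Membership also depended on single duplicate pairs. When each of the 6 duplicate pairs was left out in turn, 32 to 43 of the 53 genes met the rule again each time, and 13 met it in all 6 cases. These 13 were OTP70, AT2G02590, AT5G06790, AT3G49740, AT2G03200, AT1G28150, AT3G09050, AT2G39360, AT1G50880, AT3G25840, OSB1, AT5G42070 and AT2G36920. All of them but AT3G49740, AT1G28150 and OSB1 met it after the position correction as well, which left 10 genes. Meeting the rule each time does not mean that a gene showed no difference. AT2G02590 and AT5G06790, which are among the 10, had duplicate means that did not overlap between the groups. The sign of the log2 fold change was kept in all 6 cases for 19 genes and turned in at least 1 for 34. No gene's fold change moved by over 1.5 times in any of them.

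A measurement that the rule did not use came from 6 further probes whose annotation lists several genes, 1 of the 53 among them. The signal of such a probe is not assigned to any of its genes. In limma's model over all probes 1 of the 6 passed, against 43.1% of all probes. This probe, which lists 4 genes including the fibrillin gene AT2G35490, had log2 levels of -0.55, -0.59 and -0.30 with DCMU, against 0.02, -0.07 and -0.24 in PSI light. Its log2 fold change was -0.38 (SE 0.11, limma adjusted p = 0.0456), and -0.33 was measured on the gene's own probe. It passed in 8 of 18 other settings and not in 10, among them the replicate block (adjusted p = 0.127), with adjusted p-values of 0.00162 to 0.146 over the 18.

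The probes that list AT5G06790, AT3G50880, AT1G61990, AT4G38670 and AT1G68430 did not pass after quantile normalisation, with log2 fold changes of -0.09 (limma adjusted p = 0.592), -0.31 (0.426), -0.13 (0.321), 0.31 (0.118) and -0.29 (0.13). The own probes of these genes stood at 0.23, 0.11, 0.17, -0.17 and -0.13. Over the 6 shared probes the sign was opposite to that on the gene's own probe for 4 after quantile normalisation and for 0 with no scaling or with equal totals. In the last 2 settings all 53 own probes were lower with DCMU, and the medians over all probes were -0.32 and -0.23. Equal signs there therefore say nothing about these genes. In other settings AT3G50880's shared probe passed in 0 of 17, those of AT5G06790, AT1G61990 and AT4G38670 in 2 of 18 each and that of AT1G68430 in 4 of 17.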

How the data were processed

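The authors deposited 1 linear relative intensity per probe and sample, with the brightest probe of a column at 100.0; no source used here gives the background treatment, the scanner or a build. Members and lists were chosen with earlier results of these data known. Ranks (ties averaged) were computed from the deposited intensity values. For fold changes, these were quantile normalised, floored at the 5th percentile of positive values (0.110), turned to log2 and averaged over duplicate columns. No value of the 53 genes was at the floor in any column. limma 3.58.1 (R 4.3.3) was fitted over all 3439 probes with Benjamini-Hochberg adjustment, and was tested on simulated data. Figures used Python 3.11.15 and matplotlib 3.10.9. Arrays have no read depth, and their number limits the precision.

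Probes were named from the platform's annotation, updated with TAIR10.1: 692 with 1 gene, 870 with several and 1877 unnamed here. Genes described in detail were the 8 steadiest, 4 most variable, 4 brightest, 4 dimmest and 3 nearest the limit, 20 in all. Genes that were given a role were added after their values were seen, and roles are background knowledge. Words for 11 function groups matched the reference names of 33 of the 692 single-gene probes and of 0 of the 53 genes, so these groups are not described. Promoter and protein sequences were not used here. Same-numbered duplicate means of both groups deviated together at 0.099 to 0.306, and since 1 value was under 0.1 samples were treated as unpaired. Differently numbered ones stood at -0.274 to -0.028. Deviations from a group mean cancel, so values of both signs follow in part by construction. A pairing by number is therefore not excluded, and the replicate block gives the values under it.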

Additional observations from a re-analysis of the deposited data

Results flagged for a closer look

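Of 40 sets of 6 columns examined (20 genes in both groups), 2 held a column far from the others. Chance would pick out about 1 in 20 sets of independent columns, and these columns come in duplicates. AT1G53050 with DCMU stood at a log2 level of -1.65 in column 6, below the -0.47 to -0.05 of the other columns, a gap of 0.738 of the whole range. AT2G02590 in PSI light stood at 0.15 in column 5, below the 0.33 to 0.42 of the other columns, a gap of 0.667 of the range.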

How the results depend on the processing

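The settings were chosen with earlier results of these data known, and those for shared probes after seeing the data. The median log2 fold change of the 53 genes (-0.06) was -0.43 in the unscaled columns, -0.34 at equal totals, 0.042 under cyclic loess and 0.036 after the position correction; it stayed within the spread between duplicate means in the other settings and was -0.09 to -0.03 without 1 duplicate pair. The number of genes meeting the rule was 28 with a limit of 0.03 and 97 with 0.10, by construction, and 45 to 55 without 1 pair. The replicate block gave 51, of which 41 were among the 53 (77.4% of the 53 and 80.4% of the 51). The median range of rank (0.216) was 0.153 with duplicates averaged first and 0.182 to 0.203 without 1 pair. A gene's range over fewer or averaged columns cannot be wider, so smaller values follow by construction. Of all probes 1483 passed in limma, 798 with dim probes left out (fewer probes tested), 1394 with the replicate block, 2109 over 12 single columns and 1144 to 1294 without 1 pair. Of 355 values of the 20 genes in 18 settings, 326 moved by less than their spread between duplicate means. Many of these could not move, so the count does not measure stability. The fold changes and the median of the 53 were fixed by construction over 12 single columns and with the replicate block. So were they with duplicates as a random block and with trended variance. Leaving out dim probes could not change the genes that remained, and a floor at the 10th percentile changed none of the 20. Shared probes changed sign for AT5G06790 (0.024, cyclic loess), AT1G61990 (0.30, position correction) and AT4G38670 (-0.10 with no scaling, -0.010 with equal totals); the cause was not tested.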
